A study of Mus musculus with 6 samples.

Results

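The Dlk1-Dio3 cluster is an imprinted region of mouse chromosome 12 that holds a large group of microRNA (miRNA) hairpins. Its members here are 46 mature strands named in a list, found by name among the 1184 miRNAs of the deposited table, and 42 of the 46 had a row. miR-539-5p, miR-654-3p, miR-668-3p and miR-770-5p had none and were not analysed here. The 46 strands come from 40 hairpins, 6 of which give both arms to the list, and the list does not hold every strand of the region. In GRCm38 the hairpins lie on the plus strand of chromosome 12 between 109563692 and 109743795.

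The measurements are small RNA libraries from GMLPs, a progenitor population sorted from mouse bone marrow and cultured for 3 days with DOX (doxycycline, which turns on transgenes built to respond to it). The L28BME group (n = 3, libraries 004, 005 and 006) carried LIN28B together with MLL-ENL, and the ME group (n = 3, libraries 001, 002 and 003) carried MLL-ENL without LIN28B. MLL-ENL is a fusion gene of acute leukaemia, shared by both groups, so neither is free of an oncogene. LIN28B, a protein normally made in fetal cells, binds let-7 precursors and blocks their maturation, and the comparison asked what else differed in miRNAs when it was present. The promoters that drive the transgenes, the age of the mice and any pooling are not stated in the labels. The labels do not say whether the libraries of a group are separate mice or cultures, so each p-value reflects library-to-library spread that may be technical only.

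Only the chromosome inherited from the mother makes the miRNAs of this region. They are cut from long noncoding transcripts that run in 1 direction through Meg3, the Rtl1 antisense transcript, Rian and Mirg, while Dlk1, Rtl1 and Dio3 are read from the chromosome inherited from the father. The cluster is known from embryo, placenta and brain, and in blood formation from fetal liver and adult haematopoietic stem cells.

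The strands that the results turn on are shown first under their full names (mmu for Mus musculus), as RNA from 5′ to 3′, with the seed (bases 2 to 8, the part that pairs with target mRNAs) in capitals. The sequences are those of RefSeq for GRCm38.p6, which held 18 of the 19 strands that could be tested. The 5 strands made opposite the Rtl1 exon were these:
mmu-miR-431-5p: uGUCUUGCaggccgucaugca
mmu-miR-127-3p: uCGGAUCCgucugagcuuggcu
mmu-miR-434-5p: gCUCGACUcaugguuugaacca
mmu-miR-434-3p: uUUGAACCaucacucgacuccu
mmu-miR-136-3p: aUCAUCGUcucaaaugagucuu

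The strands of the distal part of the cluster are given in pairs or groups that show how alike neighbours are. Counting from 1 at the 5′ end of the first strand of each pair, miR-379-5p differs from miR-411-5p by G2A, U9C, A10G, G12A, G13U, A15G and G20C, and miR-300-3p differs from miR-381-3p by G4A, U21G and C22U. miR-376a-3p, which was too scarce for the test, differs from miR-376b-3p by G4A, A13C and G20U. In all 3 pairs the seeds differ, and the 18 tested strands with a sequence had 18 distinct seeds.
mmu-miR-379-5p: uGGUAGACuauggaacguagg
mmu-miR-411-5p: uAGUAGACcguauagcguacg
mmu-miR-300-3p: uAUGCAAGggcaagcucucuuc
mmu-miR-381-3p: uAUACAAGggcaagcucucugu
mmu-miR-376a-3p: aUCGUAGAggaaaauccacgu
mmu-miR-376b-3p: aUCAUAGAggaacauccacuu

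The remaining strands with the larger differences between groups lie in Mirg, and their seeds are likewise unlike each other:
mmu-miR-382-5p: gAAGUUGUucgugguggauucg
mmu-miR-154-5p: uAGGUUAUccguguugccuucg
mmu-miR-409-3p: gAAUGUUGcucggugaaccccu
mmu-miR-369-3p: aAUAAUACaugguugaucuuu

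The cluster as a whole was scarce in these cells and higher in L28BME in every library. Values are the authors' scaled reads, in which 1 read is worth 0.189 to 0.312 depending on the library. The summed value of the 42 strands was 602, 614 and 600 in L28BME libraries and 364, 375 and 350 in ME libraries. The groups did not overlap, and the L28BME mean, 606 ± 7.37, was 1.67-fold the ME mean of 363 ± 12.8 (SD, n = 3 each). Behind the sums were 3186, 2593 and 1922 reads in L28BME libraries and 1568, 1700 and 1474 reads in ME libraries. As a share of the reads of all features in the deposited table this was 0.0719% ± 0.00180 in L28BME and 0.0305% ± 0.000467 in ME (SD, n = 3 each). The let-7 guides fell to 3.25% ± 0.0454 of reads in L28BME, against 26.6% ± 0.701 in ME, which raises the share of everything else; of the reads outside let-7 the cluster made up 0.0744% ± 0.00183 in L28BME and 0.0416% ± 0.000954 in ME.

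**Figure D1:**
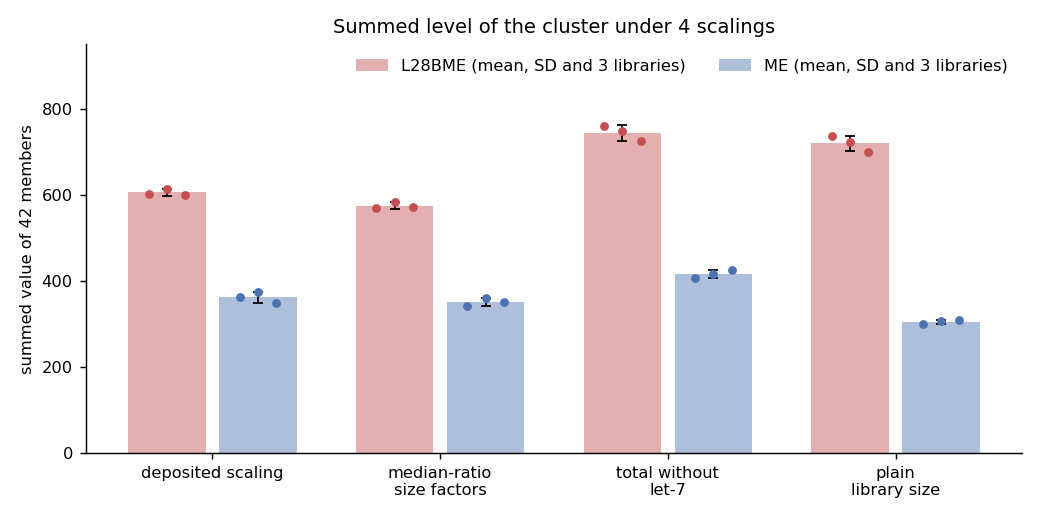
Summed value of the 42 listed strands (vertical axis, scaled reads from 0) under 4 ways of scaling the libraries, L28BME left of ME; bars are means, error bars SD and points the 3 libraries of each group. The L28BME libraries lie above the ME libraries under each scaling, by 1.67-fold with the deposited scaling, 1.64-fold with median-ratio factors, 1.79-fold with the total without let-7 and 2.36-fold with plain library size.

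The size of the difference depends on the scaling, and its direction did not under the 4 scalings shown in the plot of summed values. Plain library size moved the median log2 change of all 387 tested miRNAs to 0.46, against -0.014 with the deposited scaling, so changes are given with the deposited scaling and set beside that median. The 3 most abundant strands, miR-379-5p, miR-127-3p and miR-411-5p, held 36.6% of the summed level in L28BME and 38.9% in ME. Without them the sum was 384 ± 5.96 in L28BME and 222 ± 12.7 in ME (SD, n = 3 each), a 1.73-fold difference, so the difference did not rest on those 3.

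Of the 42 strands 19 reached a value of 5 in 3 or more libraries and were tested with limma over all 387 such miRNAs (log2(value + 1), two-sided, Benjamini-Hochberg adjusted p under 0.05). 17 were higher in L28BME and 0 were lower; miR-299a-3p and miR-376c-3p did not pass. Among all tested miRNAs 24.0% were called higher and 32.0% lower. At an unadjusted p under 0.05 the count of lower members was also 0, by limma, edgeR and DESeq2 alike. The median log2 change of the 19 was 0.66 (lowest 0.27, highest 1.30), beside -0.014 for all tested miRNAs. miR-154-5p passed the filter through its L28BME libraries alone and so had to be higher there, and without it 16 of 18 were higher with a median of 0.66. miR-381-3p and miR-369-3p each had 1 of 3 ME libraries at 5 or more, so they too passed mainly through L28BME. On the recovered reads edgeR called 17 of the 19 higher (27.4% of all tested) and DESeq2 14 (21.4%), and with plain library size limma called all 19 (62.5%). Each of these counts includes miR-154-5p.

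**Figure D2:**
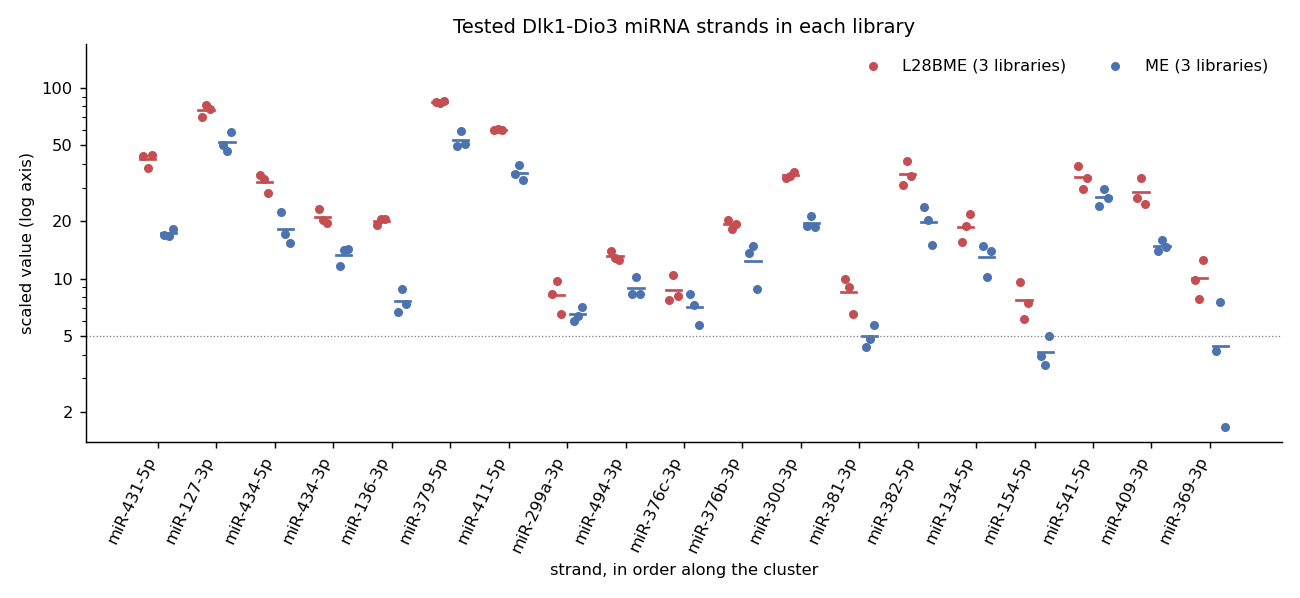
Scaled value (log axis) of each of the 19 tested strands in each library, in order along the cluster, L28BME left of ME; points are libraries, short bars the group means, and the dotted line the filter value of 5. The 3 L28BME points lie above the 3 ME points for 16 strands, and the groups overlap for miR-299a-3p, miR-376c-3p and miR-541-5p. The filter fixed this order for miR-154-5p, which is among the 16.

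Every L28BME value was above every ME value for 16 of the 19 tested strands (27.9% of all tested miRNAs). The 16 include miR-154-5p, for which the filter fixed that outcome. Among the 42 listed strands 24 were separated in this way (14.9% of all listed miRNAs). For no listed strand was every L28BME value below every ME value. The mean was higher in L28BME for 40 of the 42. The exceptions were miR-433-3p with 3 reads in each group and miR-412-5p with 7 reads in L28BME and 8 in ME, counts too low to show a direction. Levels ranked almost alike in both groups (Spearman rho 0.971 over the 42 strands, whose libraries and scaling are shared).

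**Figure D3:**
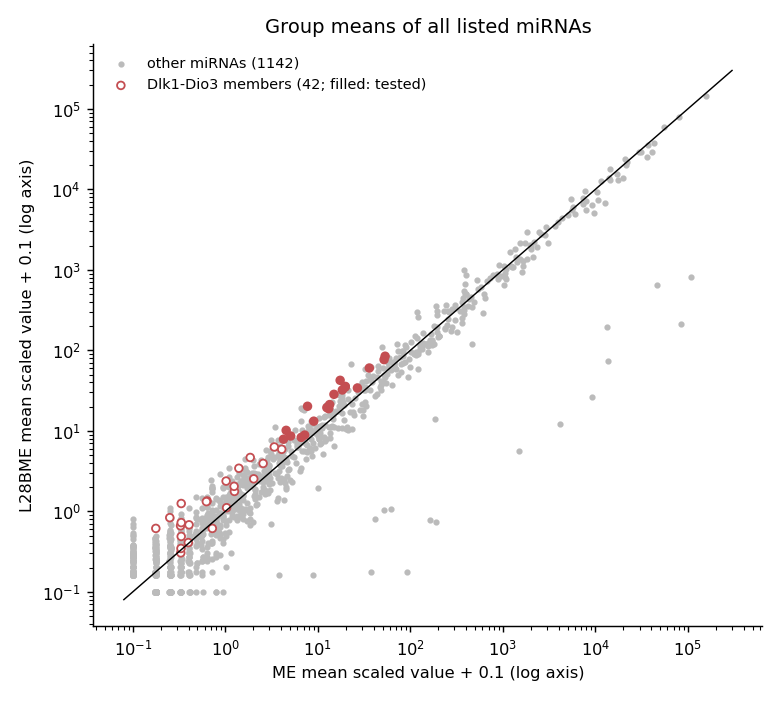
Mean scaled value of every listed miRNA in L28BME (vertical) against ME (horizontal), both on log axes after adding 0.1; grey points are 1142 other miRNAs, red points the 42 cluster strands (filled where tested), and the line marks equal means. The tested strands lie above the line, and the grey points far below it include let-7 guides such as let-7i-5p and let-7f-5p. Among the let-7 guides let-7c-5p lies nearer the line, with a mean of 25365 in L28BME and 36345 in ME.

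Among the strands opposite Rtl1, miR-136-3p and miR-431-5p were more than doubled in L28BME, as was miR-369-3p at the far end of the cluster; the order of these 3 changed when single libraries were left out. Rtl1 is a gene derived from a retrotransposon that is needed in the placenta, and the miRNAs made on the opposite strand match its mRNA along their whole length and direct its cleavage. All 7 listed strands of this stretch lie within the span of the Rtl1 exon, on the other strand, between Mir431 and Mir136; 5 were tested and 5 were higher, with a median log2 change of 0.79. Their summed value, for all 7, was 194 ± 2.38 in L28BME and 110 ± 5.37 in ME (SD, n = 3 each).

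miR-136-3p (Mir136, chromosome 12, 109595327 to 109595388) had 19.1, 20.6 and 20.6 in L28BME libraries and 6.72, 8.83 and 7.35 in ME libraries. The lowest L28BME library was more than double the highest ME library. The means were 20.1 ± 0.873 and 7.64 ± 1.08 (L28BME and ME, SD, n = 3 each), 1.30 higher on the log2 scale (SE 0.153, limma adjusted p = 7.40e-06). The strand miR-431-5p (Mir431, 109590447 to 109590537) had 44.2, 38.1 and 44.7 in L28BME libraries and 16.9, 16.8 and 18.3 in ME libraries. Its groups were as far apart, and the log2 change was 1.24 (SE 0.123, limma adjusted p = 1.09e-06).

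miR-127-3p (Mir127, 109592846 to 109592915), whose loss in mice raises Rtl1 and alters the placenta, is among the abundant strands of the cluster. It had 70.7, 81.4 and 77.8 in L28BME libraries and 50.3, 46.8 and 58.6 in ME libraries. The groups did not overlap, yet the step was smaller than that of its neighbours, with 0.56 higher on the log2 scale (SE 0.115, limma adjusted p = 0.00113). Whether members differ from each other in their change was not tested.

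Mir434 (109594506 to 109594599) was the hairpin with both arms tested. miR-434-5p had 34.8, 33.4 and 28.1 in L28BME libraries and 22.3, 17.2 and 15.4 in ME libraries, 0.79 higher on the log2 scale (SE 0.150, limma adjusted p = 0.000634). miR-434-3p had 23.3, 20.4 and 19.7 in L28BME libraries and 11.6, 14.1 and 14.2 in ME libraries, 0.63 higher on the log2 scale (SE 0.143, limma adjusted p = 0.00225). Both arms were higher in L28BME and the 5p arm was the more abundant in both groups. The log2 ratio of the 5p to the 3p arm was 0.58 in L28BME and 0.42 in ME, and the difference of 0.16 (SE 0.193) had a limma adjusted p of 0.638 over 92 hairpins with both arms tested, of which 8.70% changed.

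Mir136 and Mir379 show the other pattern, with 1 arm far above the other, more so in Mir379. In the hairpins below the mature arms are in capitals, the 5p arm first, and the loop and ends in lower case (RefSeq, GRCm38.p6, plus strand).
Mir434: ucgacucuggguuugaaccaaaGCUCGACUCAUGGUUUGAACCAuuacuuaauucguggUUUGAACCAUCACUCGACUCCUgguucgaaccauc
Mir136: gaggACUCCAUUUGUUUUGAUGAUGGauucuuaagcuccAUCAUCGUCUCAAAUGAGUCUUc
Mir379: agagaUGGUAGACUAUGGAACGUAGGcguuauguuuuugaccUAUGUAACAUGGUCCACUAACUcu
Mir136 gave 254 reads of the 3p arm and 22 of the 5p arm in L28BME, and 100 and 15 in ME. Mir379 gave 28 reads of the 3p arm and 1073 of the 5p arm in L28BME, and 19 and 697 in ME. When the filter was dropped, 36 hairpins of the cluster had both arms in the table, and limma called the arm ratio changed in 0 of them, against 2.04% of all 393 hairpins. At an unadjusted p under 0.05 there were 9 of 36, against 14.5% of all 393, and with most partner arms at a handful of reads the depth limits what such a ratio can show.

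The remaining strands of the Rtl1 stretch were scarce. miR-136-5p had 22 reads in L28BME and 15 in ME, and miR-433-3p 3 in each group, so neither was tested.

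The long stretch between the end of Rian and the annotated start of Mirg holds 19 members, 17 of them listed. Of its 8 tested strands 6 were higher in L28BME, with a median log2 change of 0.64, and the 17 summed to 255 ± 2.57 in L28BME and 157 ± 13.9 in ME (SD, n = 3 each). It opens with Mir379, the first hairpin of the group known as the miR-379/miR-410 cluster, which neurons of rodents switch on with activity.

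miR-379-5p (Mir379, 109709060 to 109709125) had 84.3, 83.8 and 85.3 in L28BME libraries and 49.4, 59.4 and 51.0 in ME libraries. Its mean was the highest among the cluster's strands in both groups, though in ME libraries 001 and 003 miR-127-3p had the higher value. The log2 change was 0.66 (SE 0.106, limma adjusted p = 0.000151). miR-411-5p, from the next hairpin (Mir411, 109710175 to 109710256), had 59.9, 60.8 and 59.96 in L28BME libraries and 35.5, 39.3 and 33.0 in ME libraries. The log2 change was 0.73 (SE 0.110, limma adjusted p = 7.49e-05). These neighbours, alike in most of their letters above, were both 1.59- to 1.68-fold higher by the ratio of means, with L28BME libraries that differed little among themselves.

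miR-300-3p (Mir300, 109724313 to 109724391) had 33.7, 34.6 and 36.2 in L28BME libraries and 18.8, 21.4 and 18.7 in ME libraries, 0.80 higher on the log2 scale (SE 0.121, limma adjusted p = 8.42e-05). Its near copy miR-381-3p (Mir381, 109726822 to 109726896) had 10.02, 8.997 and 6.56 in L28BME libraries and 4.41, 4.86 and 5.69 in ME libraries, 0.66 higher on the log2 scale (SE 0.201, limma adjusted p = 0.0133). Both pairs of groups were apart, narrowly for miR-381-3p, whose call was lost without L28BME library 004 (0.54, limma adjusted p = 0.0680). The 2 strands differ at 3 of 22 bases, and how the authors' counting assigned reads with an error there is not known from the labels.

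The miR-376 family is known from brain, where its transcripts are edited from A to I. miR-376b-3p (Mir376b, 109723458 to 109723539) had 20.4, 18.2 and 19.4 in L28BME libraries and 13.7, 14.8 and 8.78 in ME libraries, 0.63 higher on the log2 scale (SE 0.177, limma adjusted p = 0.00845), and 0.42 without ME library 003, the lowest. miR-376a-3p was under the filter with 58 reads in L28BME and 23 in ME. miR-376c-3p (Mir376c, 109722718 to 109722803) had 7.75, 10.4 and 8.12 in L28BME libraries and 8.35, 7.28 and 5.69 in ME libraries; the groups overlapped, and the log2 change of 0.27 (SE 0.192) had a limma adjusted p of 0.236. Reads of these close relatives could be split between them in counting, so single members are uncertain to that extent.

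miR-494-3p (Mir494, 109715318 to 109715402) had 13.99, 12.8 and 12.5 in L28BME libraries and 8.35, 10.2 and 8.30 in ME libraries. The groups were apart and the log2 change was 0.51 (SE 0.157, limma adjusted p = 0.0142). The call was lost in DESeq2 (adjusted p = 0.0610) and without L28BME library 004 (0.46, limma adjusted p = 0.0603). miR-299a-3p (Mir299a, 109710638 to 109710700) had 8.32, 9.71 and 6.56 in L28BME libraries and 6.03, 6.40 and 7.12 in ME libraries, and with overlapping groups its log2 change of 0.28 (SE 0.188) had a limma adjusted p of 0.221. With plain library size both miR-299a-3p and miR-376c-3p passed the test, at 0.71 each, where the median of all tested miRNAs was 0.46.

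Mirg, a noncoding gene named for the miRNAs it contains, holds 13 members, 12 of them listed. All 6 tested strands were higher in L28BME, with a median log2 change of 0.80; 1 of them, miR-154-5p, passed the filter through L28BME alone, and the other 5 had a median of 0.83. The 12 listed strands summed to 145 ± 3.79 in L28BME and 89.3 ± 5.68 in ME (SD, n = 3 each). The summed ratio was 1.62 here and 1.62 in the stretch before Mirg, and 1.77 opposite Rtl1.

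miR-409-3p (Mir409, 109743158 to 109743236) had 26.5, 33.9 and 24.7 in L28BME libraries and 13.9, 15.9 and 14.7 in ME libraries, 0.88 higher on the log2 scale (SE 0.145, limma adjusted p = 0.000185). miR-382-5p (Mir382, 109733771 to 109733846) had 30.8, 41.2 and 34.7 in L28BME libraries and 23.9, 20.3 and 14.9 in ME libraries, 0.83 higher on the log2 scale (SE 0.166, limma adjusted p = 0.000869). For both, every L28BME library was above every ME library. miR-369-3p (Mir369, 109743418 to 109743496), which in human cells binds the AU-rich element of TNF mRNA, had 9.83, 7.81 and 12.5 in L28BME libraries and 4.17, 7.50 and 1.66 in ME libraries. The ME libraries were scattered, with 1 far below the others, and the groups nearly touched, with 1.15 higher on the log2 scale (SE 0.327, limma adjusted p = 0.00878). The change was 0.71 without ME library 003 and 1.55 without ME library 002.

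miR-154-5p (Mir154, 109738433 to 109738498) had 9.64, 6.16 and 7.50 in L28BME libraries and 3.94, 3.53 and 4.98 in ME libraries, 0.76 higher on the log2 scale (SE 0.213, limma adjusted p = 0.00836). Its ME libraries were all under the filter value, and without L28BME library 004 the change was 0.61 and the call was lost (limma adjusted p = 0.0518). miR-134-5p (Mir134, 109734139 to 109734209), which in rodent neurons holds back Limk1 and the size of dendritic spines, had 15.5, 18.9 and 21.9 in L28BME libraries and 14.8, 10.2 and 13.996 in ME libraries. The gap between the groups was small, the log2 change was 0.50 (SE 0.173, limma adjusted p = 0.0240), and the call was lost in DESeq2 (adjusted p = 0.0516) and without L28BME library 005 (0.49), L28BME library 006 (0.39) or ME library 002 (0.35). miR-541-5p (Mir541, 109742409 to 109742498) had 38.8, 29.4 and 33.7 in L28BME libraries and 24.1, 29.6 and 26.3 in ME libraries; 1 ME library was above the lowest L28BME library. Its log2 change of 0.33 (SE 0.135, limma adjusted p = 0.0479) was the least secure call of the cluster, and was lost under 10 of 19 alternatives, among them leaving out L28BME library 004 (0.24) or 006 (0.33) and ME library 001 (0.26) or 003 (0.33).

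**Figure D4:**
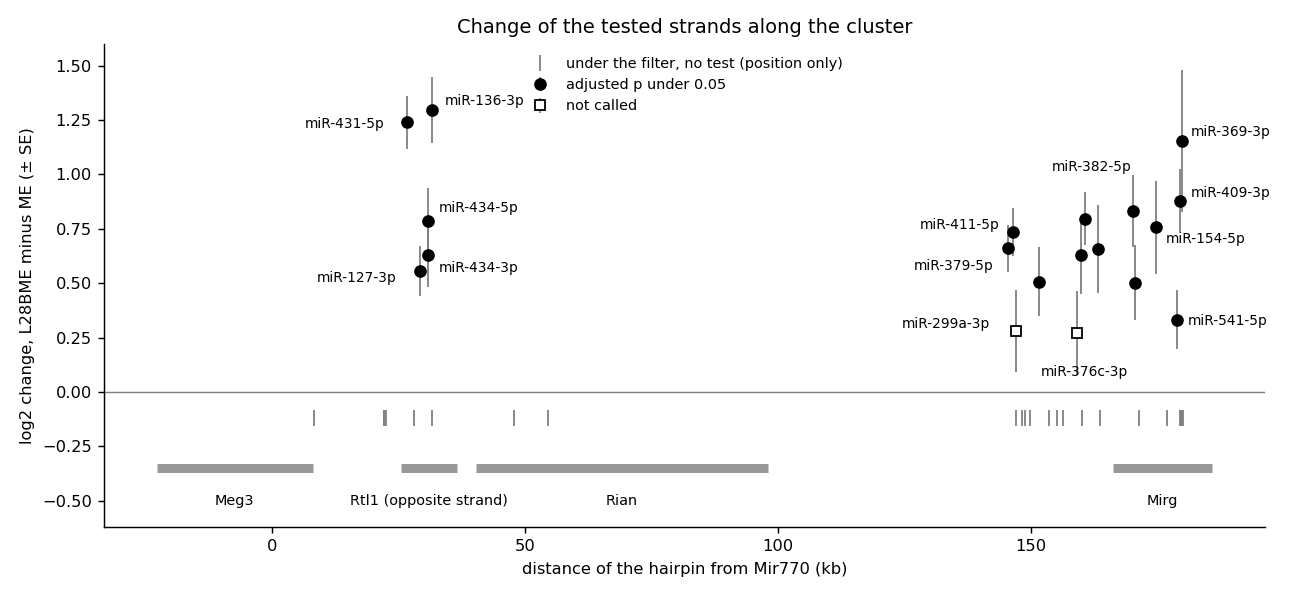
Log2 change of each tested strand (vertical axis, L28BME minus ME, error bars SE) against the distance of its hairpin from Mir770, the first of the cluster (horizontal axis, kb); filled points passed the test, open squares did not, grey ticks mark strands under the filter, and grey bars the annotated genes. The changes lie between 0.56 and 1.30 opposite Rtl1 and between 0.27 and 1.15 in the distal stretch, and no strand of the Rian stretch was tested.

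The change showed no steady rise or fall along the cluster, and other patterns with position were not tested. The median log2 change was 0.79 opposite Rtl1, 0.64 in the stretch before Mirg and 0.80 in Mirg. Over the 19 tested strands the Spearman rho of the log2 change was 0.00 with position and 0.095 with mean level, a description over strands that share their libraries. Strands of the stretch before Rtl1 and of Rian were too scarce to test. Before Rtl1, 4 of 5 members were listed and summed to 8.57 ± 1.56 in L28BME and 4.93 ± 2.08 in ME (SD, n = 3 each), from 47, 42 and 22 reads in L28BME libraries and 31, 14 and 19 in ME libraries. In Rian, a host of small nucleolar RNAs, miR-341-3p and miR-370-3p summed to 2.51 ± 1.52 in L28BME and 1.37 ± 0.369 in ME (SD, n = 3 each).

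The 23 listed strands under the filter had means over the 6 libraries of 0.217 to 4.89. For 21 of them the mean was higher in L28BME, and for 8 every L28BME value was above every ME value, beside 8.66% of all 797 listed miRNAs under the filter. With the filter dropped, limma called 20 of the 42 strands higher (9.04% of all 1184 miRNAs) with a median log2 change of 0.55, and edgeR on the reads 21 (9.04%); both called 0 lower, and at an unadjusted p under 0.05 the count of lower ones was 0 too. Beside the tested strands edgeR called 5 scarce ones. miR-376a-3p had 58 reads in L28BME and 23 in ME (edgeR adjusted p = 0.000739), miR-337-3p 44 and 17 (edgeR adjusted p = 0.00292) and miR-369-5p 75 and 43 (edgeR adjusted p = 0.0176). miR-543-3p had 28 reads in L28BME and 12 in ME (edgeR adjusted p = 0.0447), and miR-495-3p 14 and 3 (edgeR adjusted p = 0.0409). Without the filter, limma called miR-495-3p (limma adjusted p = 0.0161) but not miR-543-3p (limma adjusted p = 0.0544). miR-495-3p and miR-543-3p are near copies that differ by A6U, A7U, A9G and U10C, in the order named.

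Other scarce strands were not called by edgeR. Those with the most reads were miR-299a-5p (76 in L28BME and 52 in ME), miR-337-5p (48 and 32), miR-409-5p (31 and 25), miR-341-3p (25 and 15) and miR-136-5p (22 and 15). miR-323-3p and miR-487b-3p had 15 reads each in L28BME and 7 each in ME, miR-665-3p 14 and 12, miR-329-3p 10 and 2, miR-380-3p 9 and 3, and miR-370-3p, miR-377-3p and miR-485-5p 7 each in L28BME and 3, 4 and 1 in ME. miR-673-5p, miR-410-3p and miR-667-3p had at most 5 reads in a group. At this depth a difference in the scarcest strands was not detectable, since 3 reads correspond to a value of 0.567 to 0.937 in L28BME libraries and 0.662 to 0.712 in ME libraries, counting error only.

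At an FDR p under 0.05, 18 of the 42 strands had a positive log2 fold change and 0 a negative one in the authors' deposited table, against 6.61% with a positive one among all 1452 features. The authors' deposited table gave miR-431-5p a log2 fold change of 1.29 and miR-136-3p 1.38. It did not call miR-134-5p and miR-541-5p at that threshold, and it did call miR-337-3p, miR-376a-3p and miR-369-5p.

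Of 61 further strands of the same hairpins and their neighbours, which are not members, 42 had a row and 0 passed the filter. They are mostly the partner arms of the strands above. The mean was higher in L28BME for 33 and higher in ME for 9, and 29 had under 10 reads over the 6 libraries. Every L28BME value was above every ME value for miR-380-5p, miR-1197-3p, miR-1193-3p, miR-382-3p, miR-541-3p and miR-410-5p, which is 6 of 42. All 42 were under the filter, where the share among listed miRNAs was 8.66%. Over all listed miRNAs, tested ones included, it was 14.9%. Without the filter limma called 2 of the 42 higher and edgeR 3, beside 9.04% of all miRNAs by either. Their sum was 35.6 ± 4.20 in L28BME and 21.8 ± 2.59 in ME (SD, n = 3 each), a ratio of 1.63 beside 1.67 for the members.

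**Figure D5:**
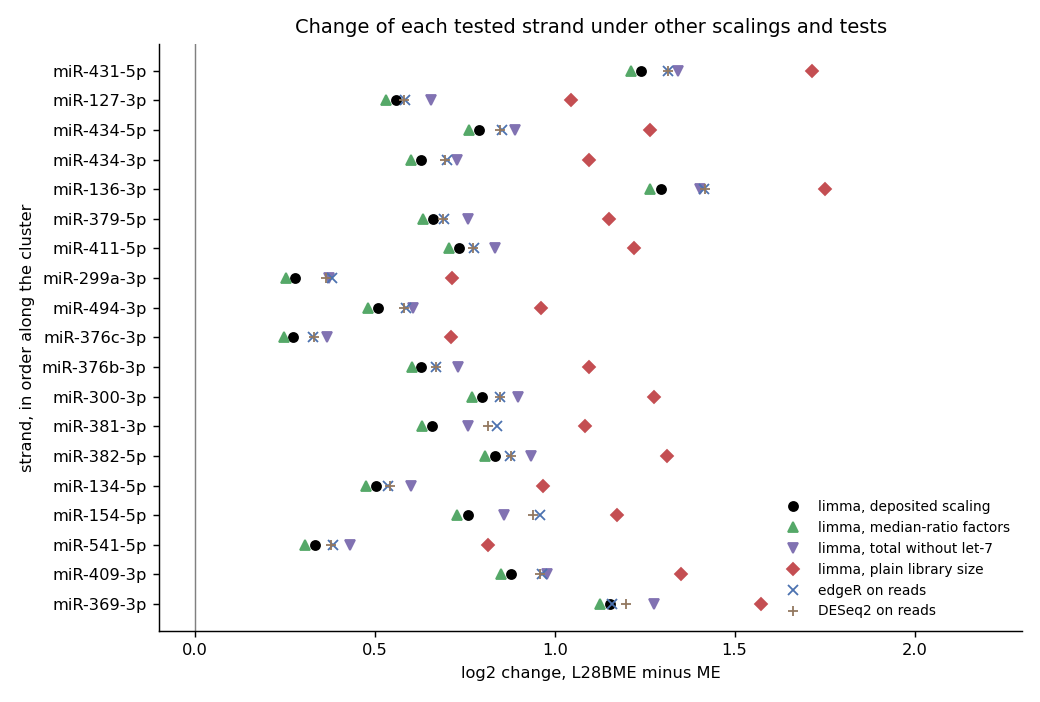
Log2 change (horizontal axis, L28BME minus ME) of each of the 19 tested strands under 4 scalings with limma and with edgeR and DESeq2 on the recovered reads. All points lie to the right of 0, and plain library size (red diamonds) shifts every strand up, as it does the median of all tested miRNAs.

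LIN28 proteins are known to bind GGAG in the loops of let-7 precursors. The letters GGAG were searched on the strand of the RNA over the whole hairpin, arms included, and not in the loop alone. They were in 17 of 40 hairpins of the members (42.5%), beside 44.5% of all 1005 hairpins in the RefSeq table. Of the 18 hairpins of tested members 5 held them (Mir411, Mir494, Mir300, Mir409 and Mir369). A match is a description of the letters and says nothing of binding.

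A promoter window of Meg3, the gene at the start of the region's noncoding transcription, is shown. It spans 300 bases around the start (RefSeq, GRCm38.p6, chr12:109540746-109541045, plus strand), with TGACGTCA in capitals.
Meg3: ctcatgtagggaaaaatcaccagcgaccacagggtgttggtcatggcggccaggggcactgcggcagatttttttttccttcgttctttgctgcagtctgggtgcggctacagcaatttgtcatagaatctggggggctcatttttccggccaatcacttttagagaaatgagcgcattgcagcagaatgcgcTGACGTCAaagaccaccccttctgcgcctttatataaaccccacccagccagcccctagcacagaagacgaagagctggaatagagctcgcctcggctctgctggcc
The window holds 13 CpG dinucleotides, beside a median of 7 over 32851 windows of the same length, and 1 copy of TGACGTCA, the palindromic cyclic AMP response element (the same on both strands), which is in 1.79% of those windows. The table holds a second Meg3 window (109545148 to 109545447), with 1 CpG and 0 copies of TGACGTCA. Meg3, Rian, Mirg and Rtl1 transcripts were not measured here, and a part of this promoter in the cluster's difference was not tested.

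Some markers of other cell types were also higher in L28BME. In bulk libraries fewer cells of a type and less RNA per cell cannot be told apart. Of 8 stromal and endothelial miRNAs 7 had a row and summed to 7625 to 8279 in L28BME libraries and 5204 to 6048 in ME libraries. The 3 tested ones were all higher in L28BME, miR-126a-3p at a log2 change of 0.48 (limma adjusted p = 0.000232), miR-199a-3p at 0.89 (limma adjusted p = 1.09e-06) and miR-199b-5p at 1.35 (limma adjusted p = 6.21e-06). miR-126a-3p, which blood stem and progenitor cells also make, gave most of that sum. The other 4 were scarce and not of 1 direction. miR-143-3p averaged 2.59 in L28BME and 1.75 in ME (32 and 23 reads) and miR-145a-5p 0.287 in L28BME and 0.0736 in ME (3 reads and 1). miR-10b-5p averaged 1.73 in L28BME and 2.90 in ME (23 and 38 reads) and miR-199a-5p 0.0789 in L28BME and 0.613 in ME (1 read and 8). miR-145a-5p and miR-199a-5p were at 0 in some libraries. The 4 erythroid miRNAs were all under the filter and summed to 9.68 to 10.8 in L28BME and 4.41 to 7.12 in ME. The part of other cells in the cluster's difference was not tested. The blood miRNAs miR-223-3p (80283 ± 6629 in L28BME and 81003 ± 10646 in ME, SD, n = 3 each) and miR-142a-3p were among the abundant miRNAs in both groups. They were chosen after their values were seen, so they are no check of the labelled cells.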

How the data were processed

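GMLP libraries of 2 groups (n = 3 each) were made from total RNA with the QIAseq miRNA kit, per the labels' protocols, and the genome build was GRCm38, per the submitters' processing notes. No source used here names the aligner or counter, or says if molecular identifiers were used, so a read may or may not be 1 molecule. The authors deposited 1 table of 1452 features (1184 miRNAs, 268 piRNAs). The file headers name its values CPM. Column sums differ between libraries, and the deposited values are a scaled signal, reads divided by an effective library size. Dividing by the value of 1 read gave whole reads for 100% of values (tolerance 0.001), 4332618, 3586388 and 2745970 in L28BME libraries and 5227711, 5528960 and 4778027 in ME libraries. The deposited p-values, log2 fold changes and signed fold changes (a score with no value between -1 and 1) are the authors' comparison of L28BME with ME, by a tool that no header names. Column names give a library number and not the replicate number of the labels. Replicates correlated at r = 0.994 to 0.996 across miRNAs and differed beyond sampling noise (ratio of chi-square to degrees of freedom 11.1 to 59.7).

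The planned test assumed CPM or counts; since the table held a scaled signal, log2(value + 1) was tested with limma (trend), a scale that understates the change of scarce miRNAs, for 387 miRNAs with at least 5 in at least 3 libraries, and edgeR and DESeq2 on the recovered reads were alternatives. The code was tested on simulated data. Other alternatives were scalings, filters, pseudocounts of 0.5 and 5, a threshold of 0.01 and leaving out each library; edgeR and the arm ratio without a filter were added after seeing the data. Named strands are all 42 listed members: each tested one with its 6 values, the others with read counts. The members and lists were chosen with earlier results of these data known. Levels of different strands are scaled reads of molecules of similar length and carry each strand's own ligation efficiency. Hairpin positions and genes are from GENCODE M21 (GRCm38). Software was edgeR 4.0.16, DESeq2 1.42.0 and limma 3.58.1 in R 4.3.3, with matplotlib 3.10.9 for figures.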

Additional observations from a re-analysis of the deposited data

How the results depend on the processing

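No paired analysis was possible because the deposited columns carry a library number and not the replicate number of the labels. Of 17 calls the number was 13 to 16 when each library was left out in turn (lowest without L28BME library 004), with a median log2 change of 0.63 to 0.74; other alternatives gave 13 to 21 higher and 0 lower. The median of the tested strands, 0.66, was 1.15 with plain library size, 0.76 with the total without let-7, 0.55 without the filter, 0.52 with a pseudocount of 5, 0.77 with edgeR, 0.77 with DESeq2 and 0.76 with edgeR without the filter; in the scaling alternatives it lay as far above the median of all tested miRNAs as before (0.67 to 0.69). The ratio of summed levels, 1.67, was 2.36 with plain library size and 1.79 with the total without let-7. Of the other strands of the cluster, none of which passed the filter, 2 were called higher without it by limma and 3 by edgeR (9.04% of all miRNAs by either). Of 356 recomputed changes of single strands 333 kept their direction and side of the threshold, 0 changed direction, 21 lost a call and 2 gained one. The cause of these differences was not tested. Depth limits the rest: most partner arms and 23 of the 42 listed members had too few reads to test.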
